A study of Mus musculus with 8 samples.

Results

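Mitochondrial ribosomal protein genes were examined in the liver of aged obese mice that had or had not eaten docosahexaenoic acid (DHA). They were the genes whose Ensembl identifier in the count tables belonged to a protein-coding gene with a symbol that starts with Mrpl or Mrps and a number. The rule found 78 genes among 56884, of which 49 are named for the large subunit (Mrpl) and 29 for the small subunit (Mrps). The rule uses symbols and no measured value. Another 6 genes with such symbols are processed pseudogenes and were left out.

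Mitochondria carry their own ribosome, the mitoribosome, which translates the few proteins that mitochondrial DNA encodes, all of them subunits of the respiratory chain and of ATP synthase. Its large subunit holds the peptidyl transferase centre and the exit tunnel, and its small subunit holds the decoding site. Every protein of the mitoribosome is made from a nuclear gene and imported, whereas its ribosomal RNAs come from the mitochondrial genome. The liver has many mitochondria, and fatty acid oxidation there depends on the respiratory chain.

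Both groups were C57BL/6J female mice that ate a high-fat diet from the age of 2 months for 4 months (diet-induced obesity, DIO), with 45% of the energy as lipids, 20% as proteins and 35% as carbohydrates. The DIO group (3 mice) stayed on this diet until 18 months. In the DIO + DHA group (5 mice), 15% of the lipids by weight gave way to a fish oil concentrate up to the same age, which contained 683.4 mg of DHA, 46.7 mg of EPA and 838.9 mg of total n-3 fatty acids per g. The methods of the study state that the DIO diet received the tocopherols that the concentrate contains. There was 1 liver library for each mouse, and the replicate numbers were 1, 4 and 5 in the DIO group and 1, 2, 4, 5 and 6 in the DIO + DHA group.

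The libraries held 1723800 to 5690347 counts, and the shallowest was DIO replicate 1. Of these, 9053 to 30359 counts fell on the members, or 0.525 to 0.537% of a DIO library and 0.548 to 0.578% of a DIO + DHA library. All 12 hepatocyte markers were detected in every library, and they summed to 146300 to 157100 CPM (counts scaled to a library total of 1000000) in the DIO group and 165000 to 177100 CPM in the DIO + DHA group, a ratio of 1.11 with 5 called higher and 3 lower. Markers of other tissues differed between the groups, with skeletal muscle markers summing to 33.9 to 37.9 CPM in the DIO libraries and 1348 to 1447 CPM in the DIO + DHA libraries. All 16 muscle markers were called higher, and of the muscle genes Mb and Casq1 had no count in any DIO library. Several of the 16, these among them, passed the count filter (below) only through the DIO + DHA group. Markers of stratified squamous epithelium summed to 0.532 to 0.721 against 75.4 to 86.0 CPM. Krt13, Krt15, Lgals7 and Sprr3 were at 0 in the DIO group. Of 10 listed, 6 passed the filter, all only through their DIO + DHA counts. That these 6 were called higher was thus largely set by the filter. Brown adipocyte markers summed to 24.5 to 28.7 against 124.1 to 150.5 CPM, with 5 of 6 listed markers tested, all higher, and Ucp1 at 0 in the DIO group. Ucp1 and Cidea passed the filter only through the DIO + DHA group. Most of the DIO + DHA sum came from the cytochrome oxidase genes Cox7a1 and Cox8b, with means of 58.65 and 61.65 CPM. Elovl3, Ucp1 and Cidea had means of 6.59, 4.42 and 2.61 CPM there. Macrophage and Kupffer cell markers were lower, at 777 to 859 against 429 to 458 CPM, with 10 of 12 markers called lower and 1 higher. All 8 libraries are labelled liver, but between the group means the muscle sum was 38.0 times, the squamous sum 134 times and the brown adipocyte sum 4.96 times as high in the DIO + DHA group. Whether tissue other than liver entered those 5 samples was not tested, and CPM values there are shares of all RNA in the sample. These shifts run along the same division of the libraries as every result below, and their part in those results was not tested. In bulk liver RNA, fewer cells of a type and less RNA per cell cannot be told apart.

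Promoters of 3 members are shown first, those whose calls held under at least 19 of 20 alternatives (below), because mitochondrial protein genes are known as targets of nuclear respiratory factors such as NRF1 and the ETS factor GABPA. Each window covers 250 bases before the annotated start site to 50 bases from it, in the GRCm39 build with GENCODE mouse release 39 transcripts, written 5′ to 3′ along the gene's own strand. Capitals mark matches to the ETS, NRF1, YY1 and ZNF143 letters, and GC boxes are not marked. The Mrpl34 window lies at chr8:71917305-71917604 on the plus strand, Mrps31 at chr8:22901113-22901412 on the plus strand and Mrpl15 at chr1:4855913-4856212 on the minus strand. The start sites used for Mrpl34 and Mrps31 lie a little upstream of the gene starts in the count tables.
Mrpl34: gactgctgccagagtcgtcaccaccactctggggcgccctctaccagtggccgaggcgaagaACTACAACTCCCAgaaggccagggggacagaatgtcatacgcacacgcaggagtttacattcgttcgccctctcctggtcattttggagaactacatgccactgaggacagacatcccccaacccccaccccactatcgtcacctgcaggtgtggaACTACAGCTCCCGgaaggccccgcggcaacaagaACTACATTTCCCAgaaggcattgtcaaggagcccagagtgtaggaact
Mrps31: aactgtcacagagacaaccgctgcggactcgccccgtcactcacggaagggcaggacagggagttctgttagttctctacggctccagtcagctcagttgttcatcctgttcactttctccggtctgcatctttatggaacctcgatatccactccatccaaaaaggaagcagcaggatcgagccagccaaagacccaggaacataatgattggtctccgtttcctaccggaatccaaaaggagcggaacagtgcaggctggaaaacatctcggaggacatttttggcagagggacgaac
Mrpl15: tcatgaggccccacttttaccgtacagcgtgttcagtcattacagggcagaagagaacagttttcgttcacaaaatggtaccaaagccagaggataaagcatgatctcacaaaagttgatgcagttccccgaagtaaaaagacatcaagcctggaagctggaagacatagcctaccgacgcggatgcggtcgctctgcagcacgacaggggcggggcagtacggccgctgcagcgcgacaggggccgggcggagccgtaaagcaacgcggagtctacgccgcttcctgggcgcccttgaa
In the Mrpl34 window, the capitals are 3 matches to the element of the zinc finger factor ZNF143, at positions -188, -32 and 3 from the start site. No capitals appear in the Mrps31 and Mrpl15 windows because none of the ETS, NRF1, YY1 and ZNF143 letters occurs there.

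Across all 78 members, the ETS letters CCGGAAGT occurred in 14.1% of the windows, against 6.76% of the windows of 11268 tested protein-coding genes. For the NRF1 core GCGCANGCG the shares were 20.5% and 12.1%, and for the YY1 letters AAGATGGCG 5.13% and 2.28%. Most windows held none of these 3 motifs, in 61.5% of the members and 80.4% of the tested genes. The GC box GGGCGG went the other way, with 42.3% against 57.1%, and the TATA box TATAAA was at 10.3% against 8.55%. The ZNF143 element, which was searched after the Mrpl34 window had been seen, occurred in 10.3% against 5.17%, and 3 or more copies were found in 1 member and in 6 of the 11268 genes. In the windows of 81 cytosolic ribosomal protein genes, the ETS letters were at 17.3% and the ZNF143 element at 12.3%, both above the members' shares, while the NRF1 core was at 9.88%, the YY1 letters at 2.47%, the GC box at 50.6% and the TATA box at 12.3%. Both strands were searched, matches to different motifs may overlap, and a match is a string of letters and not a measured binding site. Close starts on opposite strands were frequent: 27 members (34.6%) had a protein-coding neighbour on the other strand whose start lay within 1000 bases, upstream or downstream. The shares were 13.7% of tested genes and 14.8% of cytosolic ribosomal protein genes. Pairs whose ends overlap at the start are thus included. Examples are Mrpl32 with Psma2 (54 bases between starts), Mrpl51 with Ncapd2 (44 bases), Mrpl14 with Tmem63b (7 bases) and Mrpl30 with Mitd1 (61 bases). Mrpl46 and Mrps11, one gene of each subunit, share a divergent promoter with 30 bases between their starts.

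Did DHA supplementation change the mRNA level of mitoribosomal proteins? A gene entered the test if at least 1 group had a count of 5 or more in at least 50% of its libraries, and 77 of the 78 members did. Mrps18b, one of 3 genes for homologues of bacterial protein S18, failed this filter with 1 to 9 counts per library, and the end of its transcript lies wholly within exons of the gene Gm16279, so its level is unknown here. Of the 77 tested members, 9 were called higher in the DIO + DHA group and 0 lower, at an adjusted p under 0.05 in the quasi-likelihood test of edgeR over all genes. Over all 12412 genes tested, 15.2% were called, 7.89% higher and 7.28% lower. The members' share called in either direction, 11.7%, was thus below that of all genes, while all their calls were in the higher direction. The signs were uneven too, with 56 positive and 21 negative log2 fold changes (log2FC, DIO + DHA minus DIO) against 50.1% positive over all genes. The median log2FC was 0.12 for the members and 0.00 for all genes, and 16 members (20.8%) had an unadjusted p under 0.05, against 25.3% of all genes. Member values ran from -0.22 to 0.63, and their standard errors from 0.07 to 0.42 with a median of 0.10, so a member with a typical change and a typical error lay about as far from 0 as its own standard error.

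**Figure D1:**
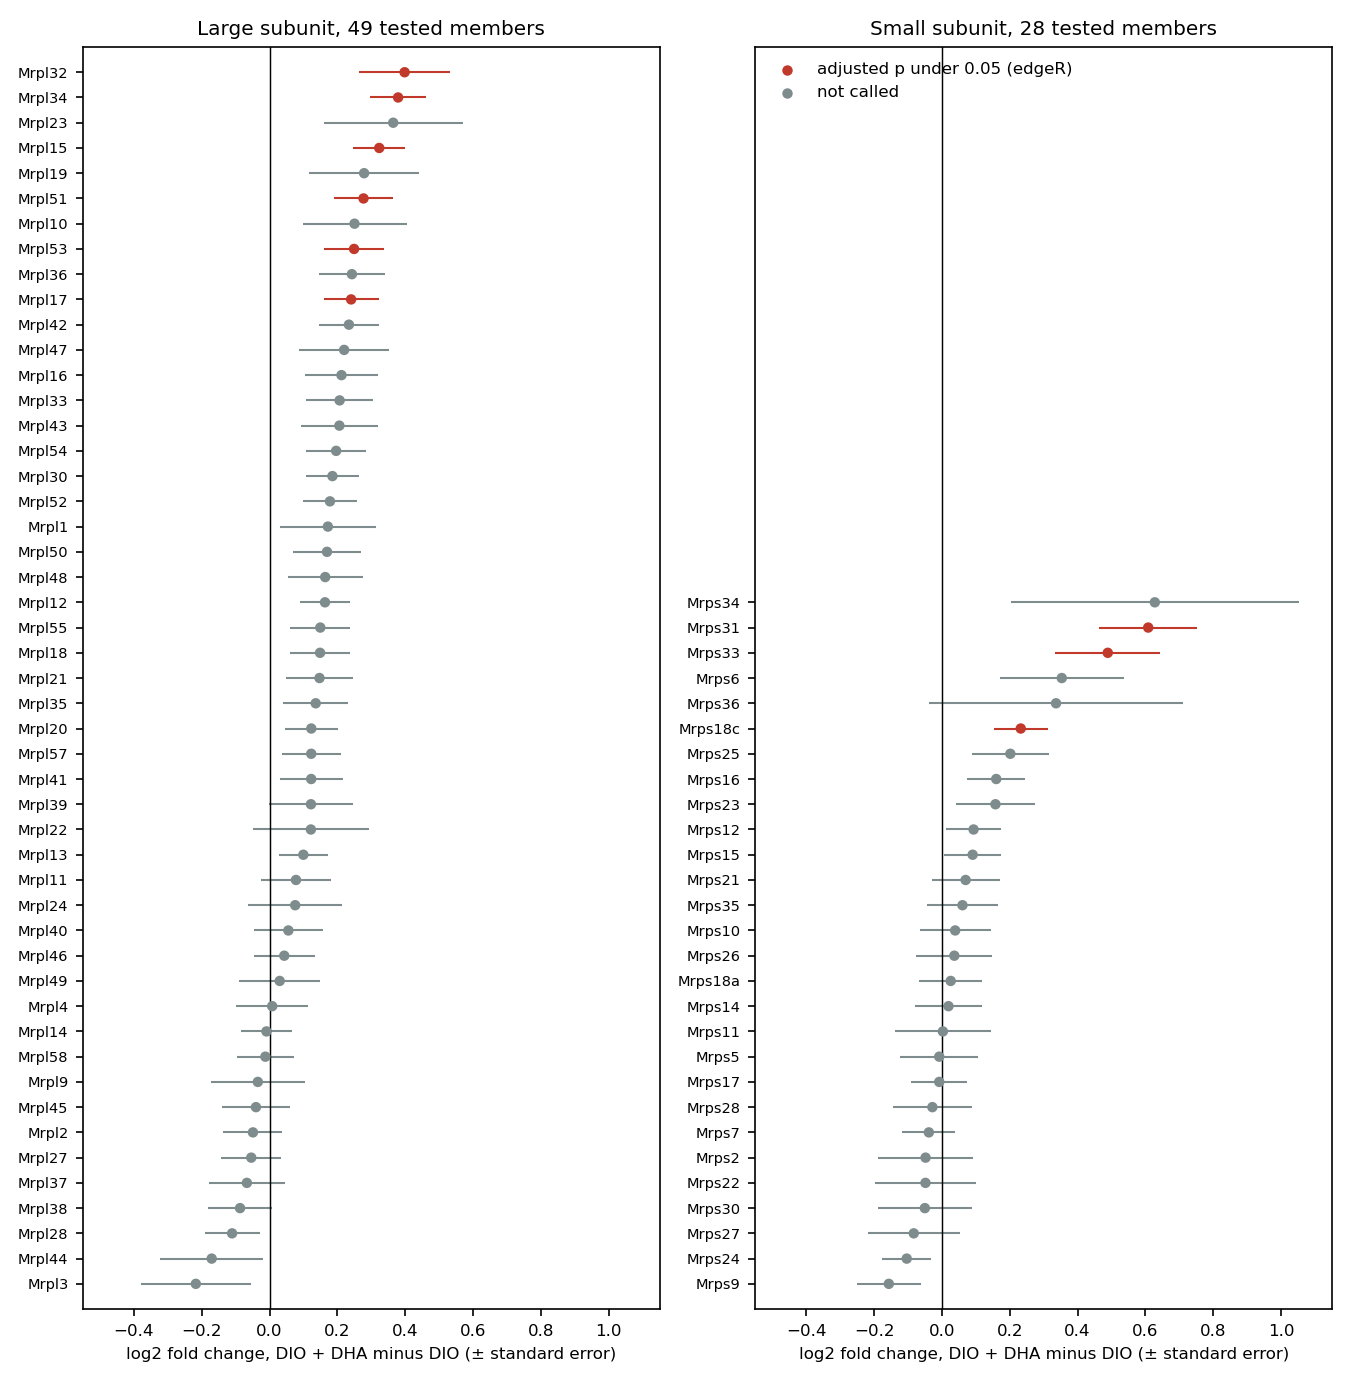
Log2 fold change of each tested member (DIO + DHA minus DIO, points) with its standard error (lines), for 49 large subunit genes on the left and 28 small subunit genes on the right; red marks the 9 called members. Most large subunit genes lie to the right of 0, 38 of 49, and all red points are positive.

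Among genes of the large subunit, 6 of 49 were called higher, and their median log2FC was 0.15 with 38 positive values. In the small subunit, 3 of 28 tested genes were called higher, with a median of 0.04 and 18 positive values. Whether these medians differ was not tested. The shares called were 12.2 and 10.7%, against 15.2% of all genes tested called in either direction and 7.89% called higher. Structures of the mitoribosome place the products of Mrps18a and Mrps30 in the large subunit, and the product of Mrps36 is now known as a subunit of the oxoglutarate dehydrogenase complex. With the members sorted by structure, the counts were 6 of 51 (11.8%) and 3 of 25 (12%), with medians of 0.14 and 0.04. Members numbered after a bacterial counterpart (up to Mrpl36 and Mrps21) had 5 of 43 called (11.6%) and a median of 0.10. Members with higher numbers, most of them proteins that bacterial ribosomes lack, had 4 of 34 (11.8%) and 0.12.

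Mrpl34 encodes the small protein bL34m of the large subunit and had the smallest p of all members. It lies on chromosome 8 at 71917603 to 71918391 on the plus strand. Its level was 119, 124 and 116 CPM in the DIO libraries and 147, 147, 169, 143 and 175 CPM in the DIO + DHA libraries. All DIO + DHA libraries were above all DIO libraries. The means were 119.9 ± 4.30 (SD, n = 3) and 156 ± 14.7 CPM (SD, n = 5), a log2FC of 0.38 with a standard error of 0.08 (adjusted p = 0.000411).

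Mrpl15 encodes the large subunit protein uL15m, and its gene is on chromosome 1 at 4843429 to 4855962 on the minus strand. DIO libraries had 140.1, 139 and 129.9 CPM and DIO + DHA libraries 158, 174, 168, 169.8 and 181 CPM. Again the groups did not overlap, and the log2FC was 0.32 with a standard error of 0.08 (adjusted p = 0.00152). Mrps31 encodes mS31, a small subunit protein without a bacterial counterpart, on chromosome 8 at 22901377 to 22919681 on the plus strand. It had 19.7, 15.9 and 15.4 CPM in the DIO group and 25.8, 25.8, 29.6, 21.8 and 23.2 CPM in the DIO + DHA group. Its groups did not overlap either, and its log2FC of 0.61 (standard error 0.14, adjusted p = 0.00148) was the highest among the called members. These 3 genes share no exon base with another gene in the annotation used for counting.

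The other 4 called genes of the large subunit had larger p-values. Mrpl51 encodes mL51 and had 70.9, 77.4 and 81.8 CPM against 96.6, 84.1, 95.6, 91.3 and 100.9 CPM, without overlap (log2FC 0.28, standard error 0.09, adjusted p = 0.0212). Of its last 500 exon bases 17.4% are shared with Mir3098. Mrpl32 encodes bL32m, which the m-AAA protease trims before it joins the ribosome. Its level was 24.2, 21.5 and 18.1 CPM against 29.2, 26.5, 25.7, 27.4 and 26.4 CPM, also without overlap (log2FC 0.40, standard error 0.13, adjusted p = 0.0315). Mrpl17 encodes bL17m, a protein near the exit of the tunnel, and had 124, 157 and 161 CPM against 171, 173, 193, 163 and 186 CPM. Its groups were separated only narrowly, with the highest DIO library at 161 and the lowest DIO + DHA library at 163 CPM (log2FC 0.24, standard error 0.08, adjusted p = 0.0330). Mrpl53 encodes mL53 and had 66.4, 84.2 and 72.9 CPM against 88.9, 93.8, 91.3, 81.7 and 94.8 CPM. Here the groups overlapped, since DIO replicate 4 was above DIO + DHA replicate 5 (log2FC 0.25, standard error 0.09, adjusted p = 0.0498).

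Besides Mrps31, the called small subunit genes were Mrps18c and Mrps33. Mrps18c encodes bS18m, another homologue of bacterial S18. It had 125, 146 and 136 CPM in the DIO group and 152, 149.8, 161, 174 and 167 CPM in the DIO + DHA group, without overlap (log2FC 0.23, standard error 0.08, adjusted p = 0.0343). Of its exon bases 23.2% lie within another annotated gene, Gm43511, though none of the last 500 exon bases do. Mrps33 encodes mS33 and had 13.5, 15.3 and 16.1 CPM against 23.6, 22.1, 24.3, 22.9 and 15.5 CPM. Replicate 6 of the DIO + DHA group lay within the range of the DIO group, and the other 4 libraries lay above it (log2FC 0.49, standard error 0.16, adjusted p = 0.0217).

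**Figure D2:**
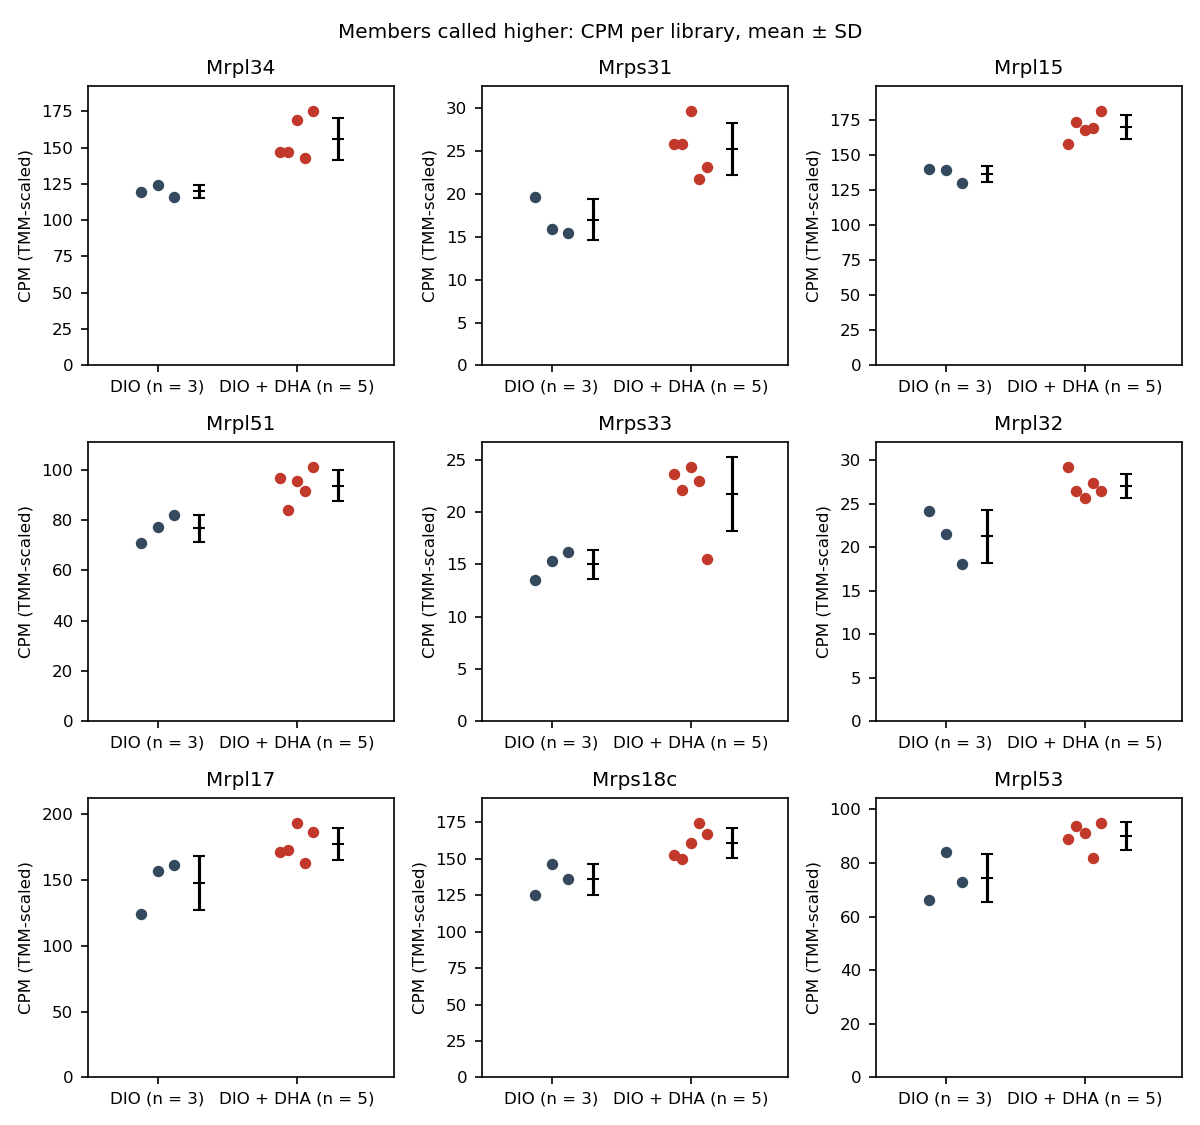
Level of each of the 9 called members in every library (points, CPM after TMM scaling, axes from 0), with the group mean ± SD beside the points, for DIO (n = 3) and DIO + DHA (n = 5). The groups are apart in 7 panels and overlap for Mrps33 and Mrpl53.

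The calls differed in how far they held when the analysis was varied. Mrpl34 and Mrps31 were called under all 20 alternatives, and Mrpl15 under 19, all but the study's own criterion of a log-odds B above 0 in limma-voom. The other 6 lost their call in 7 (Mrps33) to 15 (Mrpl53) of the 20, among them several that left out a single library. Without DIO + DHA replicate 1 or 4, 4 members (5.19%) were called, against 13.2 and 13.5% of all genes, 6.86 and 6.84% higher. Without DIO replicate 1 or DIO + DHA replicate 6, 5 members (6.49%) were called, against 12.9 and 14.8% of all genes, 6.90 and 7.59% higher. In these 4 fits the share of members called higher was thus below that of all genes. In the other 4 it was above, as in the analysis with all libraries: 9.09% against 6.07 and 6.14% of all genes without DIO replicate 4 or 5, 10.4% against 7.42% without DIO + DHA replicate 2, and 7.79% against 7.68% without DIO + DHA replicate 5. No called member changed sign under any of the 20. With the genes of other tissues and of large changes kept out of the scaling factors, the same 9 members were called.

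**Figure D3:**
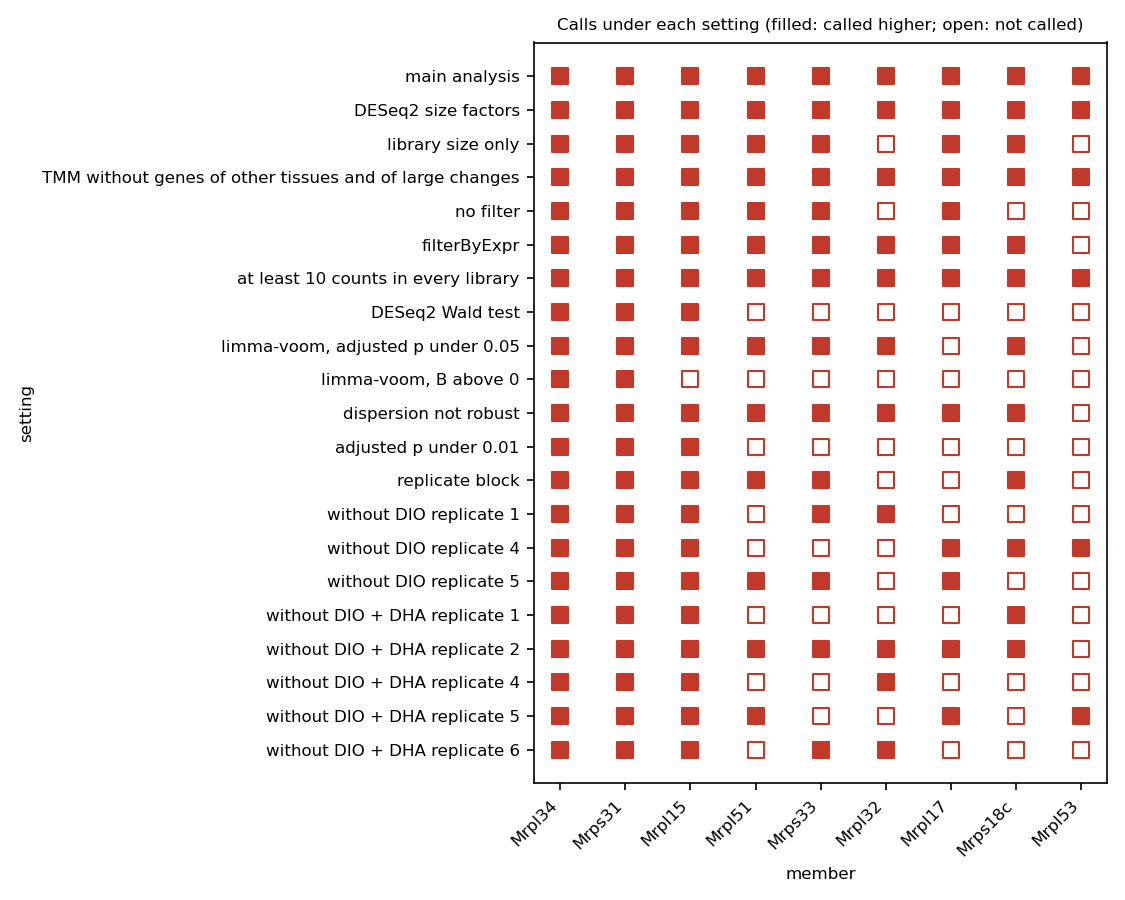
Call of each of the 9 members (columns) under the main analysis and the 20 alternatives (rows); a filled square is a call of higher at that setting's threshold and an open square none. Mrpl34 and Mrps31 are filled in all rows, and Mrpl53 in the main analysis and 5 of the alternatives.

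Every DIO + DHA library was above every DIO library for 11 members, and below for 0, while over all genes tested 9.54% were above and 8.88% below. Of the 11, 7 were called. The other 4 were Mrpl36, Mrpl23, Mrpl10 and Mrps15, of which Mrpl36 and Mrps15 are named here after their values were seen. Mrpl36 encodes bL36m and had 53.4, 57.3 and 50.2 CPM against 65.9, 58.6, 58.5, 59.96 and 72.7 CPM (log2FC 0.24, adjusted p = 0.0908). Mrps15 encodes uS15m, and its groups were tight but close, at 81.5 to 83.1 CPM against 84.9 to 90.1 CPM (log2FC 0.09, adjusted p = 0.565). Mrpl23 encodes uL23m at the tunnel exit, and it had 7.21 to 7.31 CPM in the DIO group against 8.38 to 11.1 CPM (log2FC 0.36, standard error 0.21, adjusted p = 0.271).

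The stalk of the large subunit, which recruits translation factors, is built from Mrpl10 and Mrpl12. Mrpl12, whose product was also found to bind the mitochondrial RNA polymerase, had 223, 231 and 261 CPM against 260.3, 255, 289.7, 271 and 267 CPM. DIO replicate 5 lay inside the range of the DIO + DHA group, and the log2FC was 0.16 with a standard error of 0.07 (adjusted p = 0.135). Leaving that library out gave a call, with an adjusted p of 0.0334. The other 7 fits that left out 1 library gave none, with an adjusted p up to 0.368. Mrpl10 had 14.4 to 15.8 CPM against 15.9 to 19.04 CPM (log2FC 0.25, standard error 0.15, adjusted p = 0.322), and 43.4% of its last 500 exon bases are shared with Gm11574.

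Mrpl58 encodes a peptidyl-tRNA hydrolase that rescues stalled ribosomes, and had 88.9, 102.6 and 112 CPM against 97.6, 96.9, 113, 103 and 100.2 CPM (log2FC -0.01, standard error 0.09). Mrpl44 encodes a protein related to RNase III, and its level was 28.7, 20.9 and 23.6 CPM against 22.6, 15.1, 15.0, 25.5 and 23.4 CPM (log2FC -0.17, standard error 0.15, adjusted p = 0.541). The ranges overlapped for both genes. Mrps18a, a large subunit protein by structure, had 67.0 to 74.7 CPM against 65.7 to 83.8 CPM (log2FC 0.03), and Mrps30, another, 22.7 to 28.1 against 20.2 to 30.1 CPM (log2FC -0.05). Mrps36 was scarce, with 5 to 19 counts per library, and its log2FC of 0.34 had a standard error of 0.37. It ran from 0.13 to 0.55 when 1 library at a time was left out.

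The members with the most counts are given next. By CPM, which is not divided by transcript length, the leading large subunit genes were Mrpl12, Mrpl13, Mrpl14, Mrpl52 and Mrpl30. Mrpl13 had 187 to 204 CPM in the DIO group and 200.1 to 218 CPM in the DIO + DHA group (log2FC 0.10), and Mrpl14 had 187 to 219 and 191 to 215 CPM (log2FC -0.01). For Mrpl52 the ranges were 153 to 179.5 and 165 to 213 CPM (log2FC 0.18, adjusted p = 0.137), and for Mrpl30 137 to 163 and 158 to 191 CPM (log2FC 0.19, adjusted p = 0.114). In the small subunit, the leading genes were Mrps24, Mrps7, Mrps12, Mrps17 and the called Mrps18c. Mrps24 encodes uS3m and had the highest mean CPM of all members over the 8 libraries, though Mrpl12 was above it in every DIO + DHA library. It had 253, 268 and 292 CPM against 252, 236, 246, 267 and 263 CPM. Its log2FC was -0.10 with a standard error of 0.07 (adjusted p = 0.395), and its ranges overlapped. Mrps12 encodes uS12m at the decoding site and had 116 to 120.1 against 112 to 134 CPM (log2FC 0.09). Mrps7 (log2FC -0.04) and Mrps17 (log2FC -0.01) were also within the spread of the libraries.

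The log2FC furthest from 0 among members not called belonged to Mrps34, Mrpl23 and Mrps6. Mrps34 stood at 0.63 with a standard error of 0.42, but it had 1 to 16 counts per library, and the whole of its last 500 exon bases is shared with Mapk8ip3 and Nme3, so reads from it could be dropped. With 1 library left out at a time, the log2FC of Mrps34 ran from 0.46 to 1.12. Mrps6 encodes bS6m and had 9.001, 12.4 and 9.23 CPM against 14.3, 11.4, 9.99, 13.8 and 16.2 CPM, with overlap (log2FC 0.35, standard error 0.18, adjusted p = 0.221). Over the libraries left out, its log2FC ran from 0.25 to 0.56. Apart from these 3 and Mrps36 at 0.34, the uncalled members lay between -0.22, for the large subunit gene Mrpl3, and 0.28, for Mrpl19, both named after their values were seen. In all, 33 members share at least 1 exon base with another gene and 9 share 20% or more.

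The coefficient of variation of a member over the libraries had a median of 7.92% in the DIO group and 9.10% in the DIO + DHA group, and counting alone would give 7.60 and 7.04%. The mean level of the tested members ran from 1.93 to 259.5 CPM, with a median of 52.2 CPM.

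Summed over the members, the level was 5093, 5353 and 5387 CPM in the DIO group and 5595, 5427, 5866, 5634 and 5919 CPM in the DIO + DHA group, a ratio of means of 1.08. The large subunit alone gave 3474, 3683 and 3704 CPM against 3890, 3797, 4141, 3919 and 4149 CPM, a ratio of 1.099 without overlap. The small subunit gave 1619, 1670 and 1683 CPM against 1705, 1630, 1725, 1715 and 1770 CPM, a ratio of 1.03 with overlap. Large subunit genes thus carried more counts for each small subunit count in every DIO + DHA library. That ratio within a library was 2.15, 2.21 and 2.20 in the DIO group and 2.28, 2.33, 2.40, 2.29 and 2.34 in the DIO + DHA group. These sums weight the genes with most counts, carry no test, and stand beside the muscle and macrophage marker sums that divide the same libraries.

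**Figure D4:**
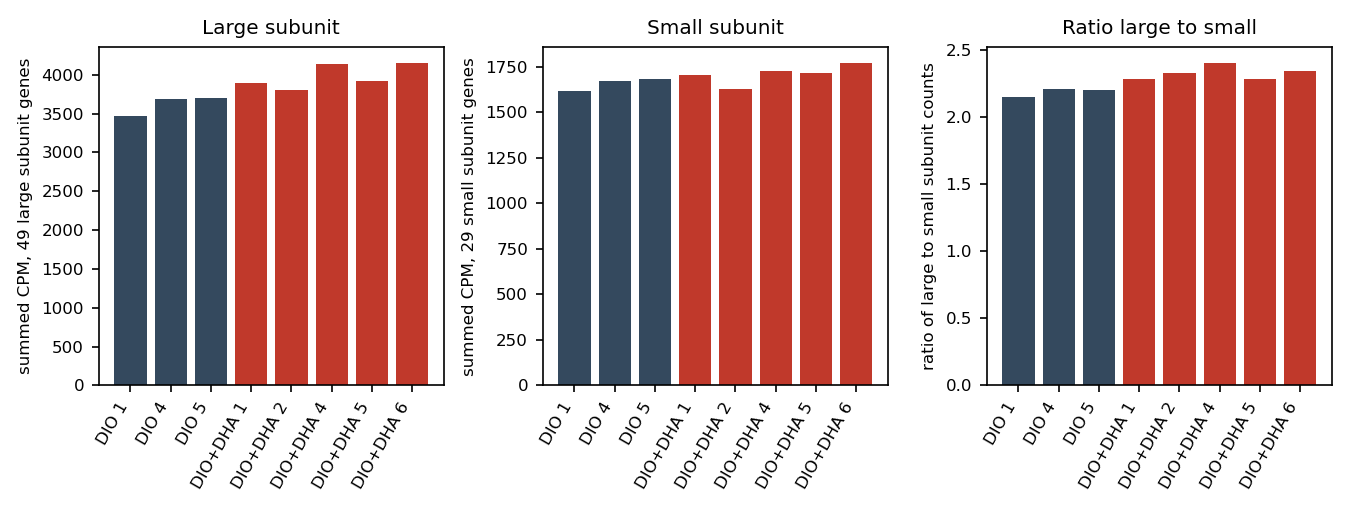
Summed level of the 49 large subunit genes and of the 29 small subunit genes (bars, CPM after TMM scaling, from 0), and the ratio of large to small subunit counts, in each library; dark bars are DIO and red bars DIO + DHA. Large subunit bars are all higher in the DIO + DHA group, by a factor of 1.099 in the mean, and small subunit bars overlap.

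Other genes of mitochondrial gene expression were read from lists, and over all genes tested 7.89% were called higher and 7.28% lower. Of the 5 mitoribosome genes with other symbols, 1 rose, Chchd1, which encodes the small subunit protein mS37. Chchd1 had 55.1, 55.4 and 44.5 CPM against 70.8, 50.6, 68.1, 70.5 and 81.5 CPM, with DIO + DHA replicate 2 inside the DIO range (log2FC 0.43, standard error 0.11, adjusted p = 0.00450). The other 4, Dap3, Aurkaip1, Gadd45gip1 and Ptcd3, had log2FC values between -0.04 and 0.05. Of 26 genes for assembly factors and rRNA modifying enzymes, edgeR called 0, with 1 at an unadjusted p under 0.05 (Trub2, a pseudouridine synthase, log2FC 0.50, adjusted p = 0.113). Their median log2FC was 0.11, and after Trub2 the smallest p-values belonged to Rcc1l (log2FC 0.24), Mrm2 (log2FC 0.37) and Eral1 (log2FC 0.32).

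Of 14 tested translation factors, 2 rose and 1 fell, with a median log2FC of 0.24. Mtfmt, which formylates the initiator methionyl-tRNA, had 1.69, 3.79 and 3.73 CPM against 7.14, 7.37, 5.71, 6.32 and 7.42 CPM (log2FC 0.99, standard error 0.27, adjusted p = 0.00527). Mtres1, which takes part in the rescue of stalled mitoribosomes, rose by 0.40 (adjusted p = 0.00781), with DIO replicate 1 at 45.0 CPM above DIO + DHA replicate 2 at 41.6 CPM. The Mtres1 call was lost without DIO replicate 4 or 5 (adjusted p up to 0.0805) and in limma-voom at B above 0. Mrrf, the ribosome recycling factor, fell by 0.46 on the log2 scale (adjusted p = 0.0257), though DIO replicate 4 with 19.7 CPM lay within the DIO + DHA range of 16.6 to 22.5 CPM. The call of Mrrf was lost in 4 of the 8 analyses that left out 1 library, without DIO replicate 1 or 5 or DIO + DHA replicate 4 or 5 (adjusted p up to 0.570). Among 20 mitochondrial aminoacyl-tRNA synthetase genes, Cars2 rose (log2FC 0.92, adjusted p = 0.0130) and Fars2 fell with overlapping ranges (log2FC -0.38, adjusted p = 0.0160), and the median was -0.13 with 14 negative values. Cars2 lost its call in 5 of the 19 alternatives that tested it and Fars2 in 5 of 20, for both including DESeq2 and the replicate block. Without DIO replicate 4 the adjusted p of Cars2 was 0.072, and without DIO replicate 5 that of Fars2 was 0.327.

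For mitochondrial transcription and RNA processing, 2 of 12 genes rose and 0 fell. Hsd17b10, a subunit of mitochondrial RNase P that is also a dehydrogenase of isoleucine and fatty acid breakdown, had 357, 369.8 and 405 CPM against 595, 595, 639, 661 and 643 CPM, without overlap (log2FC 0.73, standard error 0.07, adjusted p = 7.29e-13). Tefm, the elongation factor of the mitochondrial RNA polymerase, rose by 0.51 (adjusted p = 0.0444), a call that was lost in 14 of the 20 alternatives and in 7 of the 8 that left out 1 library, all but DIO + DHA replicate 4 (adjusted p from 0.0319 to 0.165). Hsd17b10 kept its call under all 20. Of 9 nuclear regulators, 1 rose, Ppargc1a, the coactivator of mitochondrial biogenesis, which is also strongly expressed in muscle and brown fat. Ppargc1a had 6.75, 7.93 and 9.23 CPM against 33.5, 41.9, 36.8, 31.1 and 30.1 CPM (log2FC 2.04, standard error 0.16, adjusted p = 7.00e-16). The median of the 9 regulators was -0.04, with Nrf1, Gabpa, Yy1 and the others not called.

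The products of this machinery are encoded in mitochondrial DNA. Of 15 mitochondrial mRNAs and rRNAs, 10 passed the filter and 2 rose, with a median log2FC of 0.21. mt-Rnr2, the large rRNA, had 734, 688 and 803 CPM against 1133, 1097, 988, 1102 and 1198 CPM (log2FC 0.57, standard error 0.07, adjusted p = 9.07e-10). The small rRNA, mt-Rnr1, had 719.5, 816 and 845.5 CPM against 1026, 883, 765, 845 and 878 CPM, with overlap (log2FC 0.15, adjusted p = 0.194). mt-Nd1, a subunit of complex I, had 4448 to 5371 CPM against 5723 to 7448 CPM (log2FC 0.42, standard error 0.07, adjusted p = 3.78e-05). Only unique alignments were counted, and several mitochondrial genes have near-identical nuclear copies, so these levels are uncertain.

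Cytosolic ribosomal protein genes served as a comparison. Of 77 tested, 24 rose and 0 fell (31.2%), with 75 positive values and a median log2FC of 0.23, against 11.7% and 0.12 for the mitochondrial members. Whether the lists differ was not tested. The smallest p-values belonged to Rpl3l, Rps19, Rpl4 and Rpl32. Rpl3l, the muscle paralogue of Rpl3, had 0.00 to 1.24 CPM against 5.35 to 9.38 CPM (log2FC 3.55), and the other 3 had log2FC values of 0.29, 0.28 and 0.32.

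**Figure D5:**
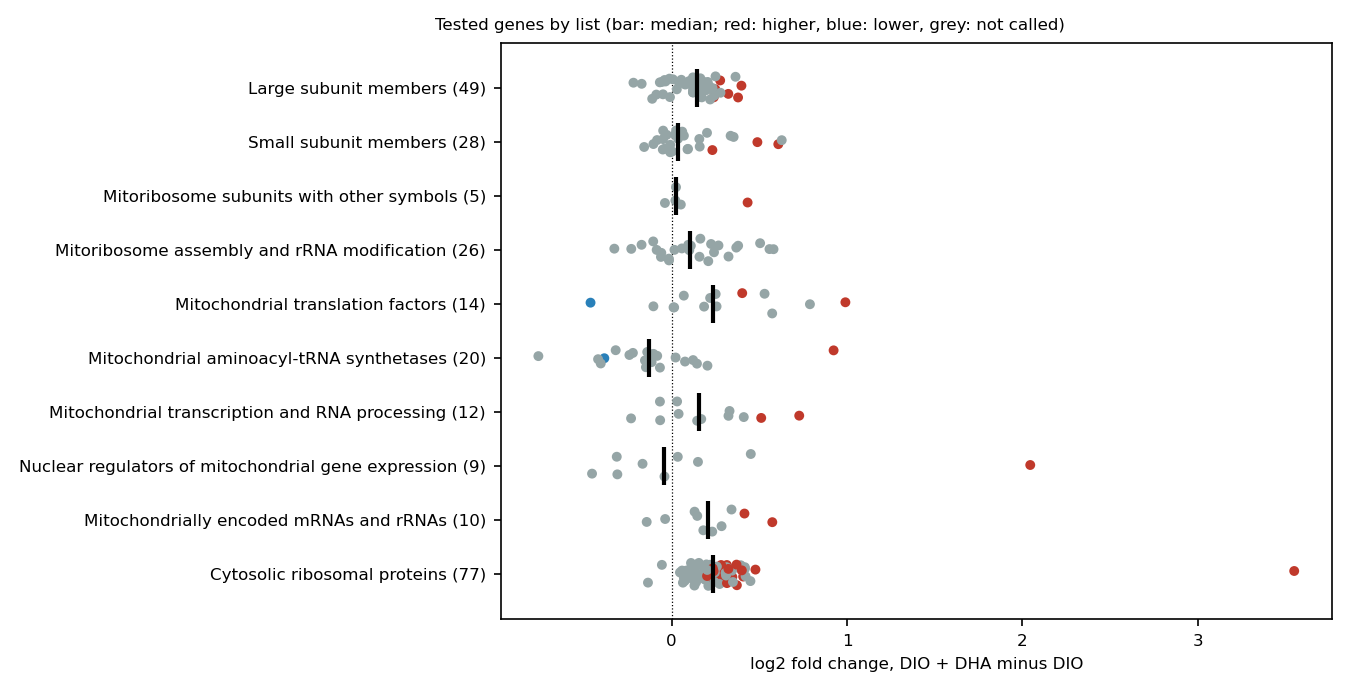
Log2 fold change (DIO + DHA minus DIO) of each tested gene of the members by subunit and of the other lists, with the number tested in parentheses, a bar at each median and colour for the call. The median is 0.15 for large subunit members, 0.04 for small subunit members and 0.23 for cytosolic ribosomal proteins, and the isolated points at the right are Ppargc1a and Rpl3l.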

How the data were processed

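Poly(A) RNA of 8 livers was sequenced from 3′-enriched cDNA made by an adapted SCRB-seq protocol. The authors checked reads with FastQC 0.11.8, aligned them to GRCm39 with STAR 2.7.9a and counted exonic reads of GENCODE mouse release 33 genes with featureCounts 1.6.0. The deposited values are raw counts per gene. Counting was unstranded, used unique alignments and dropped reads shared by overlapping genes. Collapse of molecular identifiers is not given in the sources used here, so counting errors may be too small, and levels were not divided by length.

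Symbols came from GENCODE mouse release 39 (56323 of 56884 identifiers). Groups were compared in R 4.3.3 with edgeR 4.0.16 (TMM scaling, robust quasi-likelihood fit and F test), with no covariate and Benjamini-Hochberg adjustment over 12412 genes; the standard error is the log2FC divided by the square root of F. The procedure was tested on simulated data with the same dispersion for every gene and no group difference in tissue content. That test cannot vouch for calls where these differ. All libraries carry batch label 1, but the methods of the study name no batches, so whether the groups were handled apart is not known. No pairing of the samples by replicate number was seen (below).

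Named members were those called, the 5 of each subunit with most counts, the 3 largest changes not called, those failing the filter and 9 with a known special role; of other lists, all called genes of lists up to 20 genes and 4 of longer lists. Members and lists were chosen with earlier results of these data known. Alternatives were DESeq2 1.42.0, limma 3.58.1, other scalings, filters and thresholds, a replicate block and leaving out each library. Library totals were 1723800 to 5690347 counts.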

Additional observations from a re-analysis of the deposited data

Results flagged for a closer look

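The level of Mrps33 in the DIO + DHA group had 1 library far from the others. Replicate 6 had 15.5 CPM and the other 4 libraries had 22.1 to 24.3 CPM, and the gap to the nearest library was 0.755 of the group's range, above Dixon's 95% critical value of 0.71 for 5 samples. Chance alone gives such a flag in about 1 of 20 groups, and 31 members and sums were looked at. Without this library, the log2FC of Mrps33 was 0.59 (adjusted p = 0.00283). The cause was not tested.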

How the results depend on the processing

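The members called numbered 6 to 9 under other scalings, other filters, non-robust dispersions and limma-voom at an adjusted p under 0.05 (7). With no filter this was 7.69% of the members against 7.77% of all genes (4.25% higher), and in limma-voom 9.09 against 15% (7.69% higher), while other scalings, other filters and non-robust dispersions gave 9.09 to 12% of the members against 14.9 to 18.2% of all genes (7.28 to 8.57% higher). There were 0 members called lower under any alternative. Stricter tests called fewer: 3 with the Wald test of DESeq2, 3 at an adjusted p under 0.01 and 2 with limma-voom at B above 0, or 3.90, 3.90 and 2.60% of the members. Over all genes 10.6, 9.87 and 6.93% were called, 5.77, 5.29 and 3.73% higher, so the members lay below the share of all genes in the higher direction too. Under these 3 settings the large subunit had 2, 2 and 1 calls, the small subunit 1, 1 and 1, members with bacterial numbers 2, 2 and 1, and members with higher numbers 1, 1 and 1. Without the low-count filter, 3 members with bacterial numbers were called and 6 members in all. Leaving out the 9 members that share 20% or more of their exon bases, or the 23 with a lowest count under 50, both chosen after seeing the data, left 8 and 6 called members and in each case a median log2FC of 0.10.

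Leaving out 1 library at a time gave 4 to 8 called members, 2 to 5 in the large subunit and 1 to 3 in the small subunit, 3 to 5 with bacterial and 1 to 3 with higher numbers. Over all genes these 8 fits called 11.1 to 14.8%, 6.07 to 7.68% higher. The 6, 7, 7 and 8 calls without DIO + DHA replicate 5, DIO replicate 4, DIO replicate 5 and DIO + DHA replicate 2 were 7.79, 9.09, 9.09 and 10.4% of the members, against 14.3, 11.2, 11.1 and 14% of all genes. The median log2FC ran from 0.09 to 0.12, and for the large subunit from 0.10 (without DIO + DHA replicate 4) to 0.17. Members without overlap numbered 11 to 23, with 18 (23.4%) without DIO replicate 4 and 23 (29.9%) without DIO + DHA replicate 2, where 13.2 and 11.3% of all genes had every DIO + DHA library above. The other lists had 0 to 1 calls (subunits with other symbols, 0 without DIO replicate 5), 0 to 1 (assembly, 1 without DIO replicate 5), 1 to 3 (translation factors, 1 without DIO replicate 5), 1 to 3 (synthetases, 1 without DIO replicate 4 or 5), 1 to 2 (transcription and processing, 1 in 7 of the 8 fits, where Tefm lost its call), 2 to 4 (mitochondrially encoded, 4 without DIO + DHA replicate 5) and 14 to 32 (cytosolic ribosomal proteins, 14 without DIO replicate 5).

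Members near 0 changed sign without ever being called. The log2FC of Mrps17 was 0.0001 in limma-voom at either threshold and -0.0521 to 0.0475 over the libraries left out, and the ranges were -0.0699 to 0.0785 for Mrpl58, -0.1709 to 0.0078 for Mrps30, -0.0395 to 0.0977 for Mrps18a, -0.0437 to 0.0709 for Mrpl14 and -0.1042 to 0.0573 for Mrps7.

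For the other lists, limma-voom at B above 0 called 0 subunits with other symbols, 0 translation factors, 0 synthetases, 1 gene of transcription and processing and 3 cytosolic ribosomal proteins. At an adjusted p under 0.01 the counts were 0 synthetases, 1 gene of transcription and processing and 12 cytosolic genes, and DESeq2 called 0 synthetases and 1 gene of transcription and processing. Scaling by library size, no filter and limma-voom at an adjusted p under 0.05 each left 1 gene of transcription and processing. The synthetases had 1 call with at least 10 counts in every library. The cytosolic count rose to 36 without a filter, 35 with non-robust dispersions and 34 in limma-voom at an adjusted p under 0.05. The mitochondrially encoded genes had 4 calls without a filter, 5 in limma-voom and 5 with non-robust dispersions. The cause of these differences was not tested.

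The replicate numbers 1, 4 and 5 occur in both groups, but same-numbered libraries did not deviate together (correlations -0.01, -0.01 and -0.01), so they share only a number. With the replicate block, 6 members were called, 3 of them in the large subunit, 3 with bacterial numbers, with 1 synthetase and 1 gene of transcription and processing, and the log2FC of Mrpl58 was 0.0421; over all genes 1538 were called in place of 1883, and no DIO library correlated best with its own number.

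Depth limits the members with few counts: 23 had fewer than 50 counts in at least 1 library.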
